A study of Mus musculus with 12 samples.

Results

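Leukocyte integrins are the adhesion receptors of blood cells, and 9 of their genes are described here across the 4 kinds of culture of this study. The genes were *Itgal*, *Itgam*, *Itgax*, *Itgb2*, *Itga4*, *Itgb7*, *Itga5*, *Itga6* and *Itgb1*. These genes were picked with earlier results of these data known. Their probe sets were taken by symbol, as every probe set of the array annotated to these names. That gave 23 of the 45101 probe sets in the table, and 19 of the 23 passed the filter on dim probe sets, with each of the 9 genes still represented.

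All 12 arrays came from mouse bone marrow cells, taken after 5-fluorouracil from mice that were (C57Bl/6Ly-Pep3b x C3H/HeJ) F1. That drug kills dividing cells. Every culture, control included, carried NUP98-HOXD13, a leukaemia fusion gene introduced with the ND13-GFP or ND13pac virus. The labels do not say which of these viruses each array's cells had received. The cells had been kept for 4 weeks with human IL-6 (10 ng/ml), mouse IL-3 (6 ng/ml) and mouse stem cell factor (100 ng/ml). A further virus was then added by 2 days of growth on irradiated E86 producer cells, and RNA was taken from sorted cells. The control virus MIY-ctrl encodes yellow fluorescent protein alone. The MEIS1-WT group received wildtype MEIS1, a homeodomain transcription factor that works with HOX proteins. The MEIS1-deltaHD group received MEIS1 without that DNA-binding homeodomain, and the M33-MEIS1 group received a construct of which the labels give only the name. M33 was an earlier name for Cbx2, which belongs to the Polycomb group. Each group had 3 arrays from experiments the record calls independent. Expression in each group is driven by a retroviral vector, and the sources used here state neither the age of the mice nor the gate of the sort.

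An integrin works as a pair of 1 alpha and 1 beta chain, and neither chain is stable at the cell surface without a partner. The chains encoded by *Itgal*, *Itgam* and *Itgax* pair with that of *Itgb2*, giving LFA-1, Mac-1 and p150,95, which bind ICAMs, complement fragments and fibrinogen. The alpha 4 chain pairs with beta 1 or beta 7, for VCAM-1, fibronectin and MAdCAM-1, and the alpha 5 and alpha 6 chains pair with beta 1, for fibronectin and laminin. In bone marrow the alpha 4 and beta 1 chains hold stem and progenitor cells in their niche, and Mac-1 appears as cells mature into monocytes and granulocytes.

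The start regions of 3 of these genes are printed because the genes went different ways. On the log2 scale used below, *Itgam* fell the most with MEIS1-WT and MEIS1-deltaHD, though not with M33-MEIS1. *Itgb7* fell with each construct, and *Itgb1* did not fall. Each line holds the 250 bases before the start of the gene in RefSeq (mouse build GRCm38.p6), 5′ to 3′ in the direction of the gene. Capitals mark GAGGAA or its reverse complement, the core letters of a site for PU.1, the myeloid transcription factor made by *Spi1*.
Itgam, chr7:128062390-128062639, plus strand: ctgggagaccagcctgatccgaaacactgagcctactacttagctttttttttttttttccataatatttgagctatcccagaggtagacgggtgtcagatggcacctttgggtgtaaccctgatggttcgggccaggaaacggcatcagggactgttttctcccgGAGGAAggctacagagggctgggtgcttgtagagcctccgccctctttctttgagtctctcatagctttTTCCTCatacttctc
Itgb7, chr15:102231936-102232185, minus strand: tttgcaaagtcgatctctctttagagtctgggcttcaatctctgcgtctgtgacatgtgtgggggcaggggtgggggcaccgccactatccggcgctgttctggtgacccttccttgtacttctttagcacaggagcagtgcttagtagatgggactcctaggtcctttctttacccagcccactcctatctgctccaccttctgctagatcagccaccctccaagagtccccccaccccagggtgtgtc
Itgb1, chr8:128685404-128685653, plus strand: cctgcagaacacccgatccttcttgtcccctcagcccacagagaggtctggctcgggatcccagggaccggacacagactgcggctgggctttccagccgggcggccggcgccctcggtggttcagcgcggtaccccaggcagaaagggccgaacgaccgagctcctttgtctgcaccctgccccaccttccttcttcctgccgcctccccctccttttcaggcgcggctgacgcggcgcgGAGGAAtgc
RefSeq windows were at hand for 6 of the 9 genes. The *Itgam* window held GAGGAA 2 times, once at bases 84 to 79 before the start on the strand of the gene and once at bases 15 to 10 on the opposite strand. The *Itgb1* window held it at bases 9 to 4, the *Itga5* window at bases 127 to 122 on the opposite strand, and those of *Itgax*, *Itga4* and *Itgb7* not at all. Of all 32841 windows of this length, 23.258% held these letters on either strand and 3.535% held them at least 2 times. The letters TGACAG, the core of a MEIS-type site, stood in 15.858% of all windows and in 0 of the 6. The matches did not overlap each other, and they describe letters only. *Itgam* and *Itgax* are next to each other on chromosome 7, with 0 protein-coding genes between them, and 35 lie between *Itgal* and *Itgam*.

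The arrays had a common scale, with a trimmed mean signal of 100.001 on each, and the precision is limited by their number. The median signal of an array was 17.4 to 21.6 in control and 13.1 to 16.04 over the 9 construct arrays. Actin had a ratio of 3′ to 5′ signal of 1.49 to 1.51 in control and 1.30 to 1.48 with the constructs, while that of *Gapdh* was 0.774 to 0.801 and 0.811 to 0.882. These values moved with the groups, and their part in the results below was not tested. Of the *Meis1* probe sets, the brightest read 187 ± 18.4 (SD, n = 3) in control and between 110 ± 9.96 (MEIS1-deltaHD) and 141 ± 10.4 (MEIS1-WT) otherwise. Construct sequences were not used here, so this probe set does not check the labels. A *Cbx2* probe set stood at 51.3 ± 9.60 in M33-MEIS1 cells, and its means in the other groups were 7.12 to 11.4. The other, brighter *Cbx2* probe set was not raised there, at 63.9 ± 10.3 with M33-MEIS1, 82.1 ± 20.2 in control, 64.9 ± 7.47 with MEIS1-WT and 57.7 ± 12.1 with MEIS1-deltaHD.

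Against the control vector, under the authors' scaling, most of the integrin genes were lower with each construct and none of the 9 passed as higher in limma. At an unadjusted p below 0.05, *Itgb1* was higher with MEIS1-deltaHD and M33-MEIS1. Also at that level without passing, *Itga5* was lower with MEIS1-deltaHD, and *Itga6* was lower with MEIS1-deltaHD and M33-MEIS1. With MEIS1-WT 6 of 9 passed as lower, against 19.4% of the 19990 genes tested. With MEIS1-deltaHD 6 of 9 passed, against 22.7%, and with M33-MEIS1 5 of 9 passed, against 18.3%. The 6 with MEIS1-deltaHD include the dim *Itgax*, whose probe set lay above the filter threshold on none of the MEIS1-deltaHD arrays. Of all genes 13.3%, 13.8% and 12.4% passed as higher in these comparisons. The arrays of construct and control did not overlap for 6, 9 and 6 of the 9 integrin genes, against 42.9%, 48.2% and 40% of all genes. With MEIS1-deltaHD the *Itgb1* arrays lay above control and those of the other genes below it. For *Itgax* the highest MEIS1-deltaHD array read 7.64 and the lowest control array 7.69, both below the filter thresholds of their arrays. A gene passed at a Benjamini-Hochberg adjusted p below 0.05 in limma, fitted over all genes. The median log2 difference of the 9 was -0.79, -0.68 and -0.46 in the same order, beside medians of -0.12, -0.17 and -0.13 over all genes. The median with MEIS1-deltaHD is the value of the dim *Itgax*. *Itgal*, *Itgam*, *Itga4*, *Itgb2* and *Itgb7* passed in all 3 comparisons, which share the 3 control arrays. Differences are on the scale of log2(signal + 16), which understates the change of dim genes, and are given with the standard error (SE) of the model. Signals are linear, and the signal of one probe set says nothing about the level of another gene.

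**Figure D1:**
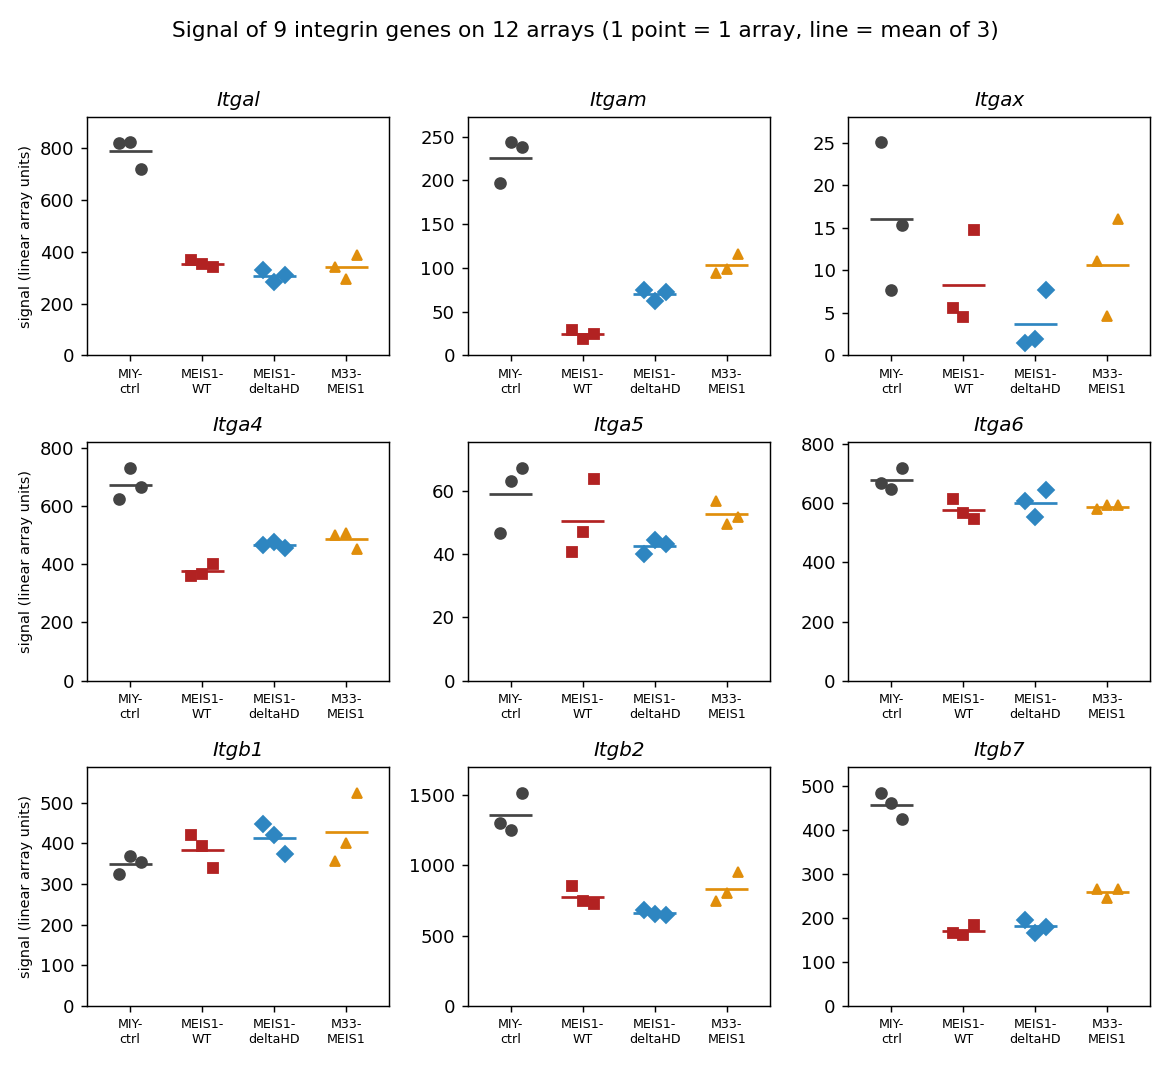
Signal of the 9 integrin genes (vertical axes, linear array units starting at 0) in the 4 groups (horizontal axes), with 1 point per array and a line at the mean of 3 arrays. The 3 control points lie above all construct points for Itgal, Itgam, Itga4, Itga6, Itgb2 and Itgb7. For Itgax, Itga5 and Itgb1 the control points mix with those of MEIS1-WT and M33-MEIS1. The MEIS1-deltaHD points lie just below control for Itgax and Itga5 and just above it for Itgb1.

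*Itgb2*, the beta chain shared by LFA-1, Mac-1 and p150,95, read 1301, 1249 and 1516 on the control arrays. With MEIS1-WT it read 852, 745 and 727, with MEIS1-deltaHD 681, 650.1 and 647, and with M33-MEIS1 743, 801 and 953. All 3 control arrays lay above all 9 construct arrays, and the highest construct array was 1 of M33-MEIS1. Mean signal was 1.75-fold lower with MEIS1-WT (log2 difference -0.79 ± 0.092 SE, adjusted p = 2.16e-07). It was 2.06-fold lower with MEIS1-deltaHD (-1.02 ± 0.092, adjusted p = 4.26e-09) and 1.63-fold lower with M33-MEIS1 (-0.70 ± 0.092, adjusted p = 2.14e-06).

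*Itgal*, the alpha chain of LFA-1, which binds ICAM-1 and lets lymphocytes and myeloid cells adhere firmly, read 820.1, 822 and 721 in control. The MEIS1-WT arrays read 368, 353 and 340.1, the MEIS1-deltaHD arrays 329, 282 and 310.2, and the M33-MEIS1 arrays 340.1, 294 and 389. Every construct array stood at roughly the same level, far below control. The mean was 2.23-fold lower with MEIS1-WT (-1.12 ± 0.095, adjusted p = 1.23e-09), 2.56-fold lower with MEIS1-deltaHD (-1.31 ± 0.095, adjusted p = 9.35e-11) and 2.31-fold lower with M33-MEIS1 (-1.18 ± 0.095, adjusted p = 9.32e-10). A second *Itgal* probe set, tested singly, went the same way. It read 200.3 ± 15.8 in control, and 106 ± 7.04 (MEIS1-WT), 97.3 ± 9.18 (MEIS1-deltaHD) and 92.3 ± 5.00 (M33-MEIS1) otherwise, with log2 differences of -0.82, -0.93 and -0.997 (adjusted p = 2.48e-06, 4.12e-07 and 2.23e-07).

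*Itgam* encodes the alpha chain of Mac-1, known as CD11b, a receptor of monocytes, macrophages and neutrophils for complement and fibrinogen. Its control arrays read 197, 243 and 238. The MEIS1-WT arrays read 29.2, 19.2 and 24.4, those of MEIS1-deltaHD 74.6, 62.0 and 72.6, and those of M33-MEIS1 94.5, 98.3 and 116. The 4 groups did not overlap: control was highest, then M33-MEIS1, MEIS1-deltaHD and MEIS1-WT. Against control the mean was 9.31-fold lower with MEIS1-WT (-2.59 ± 0.13, adjusted p = 1.22e-13). It was 3.24-fold lower with MEIS1-deltaHD (-1.50 ± 0.13, adjusted p = 2.92e-09) and 2.20-fold lower with M33-MEIS1 (-1.03 ± 0.13, adjusted p = 1.50e-06).

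*Itgax* encodes CD11c, the alpha chain of p150,95 and a mark of dendritic cells and some macrophages. It was dim: its probe set lay above the filter threshold on 5 of 12 arrays, none of them of MEIS1-deltaHD, between the 15.5th and the 55.9th percentile of an array. Control read 25.0, 7.69 and 15.3, MEIS1-WT 5.62, 4.52 and 14.7, MEIS1-deltaHD 1.45, 1.90 and 7.64, and M33-MEIS1 11.1, 4.68 and 16.03. The control arrays spread over the range of the MEIS1-WT and M33-MEIS1 arrays. The log2 difference was -0.39 ± 0.25 with MEIS1-WT (adjusted p = 0.253) and -0.25 ± 0.25 for M33-MEIS1 (adjusted p = 0.480). With MEIS1-deltaHD it passed as lower (-0.68 ± 0.25, adjusted p = 0.0338), but not under quantile (adjusted p = 0.171) or median scaling (0.110), nor without control replicate 1, control replicate 3, MEIS1-deltaHD replicate 1 or MEIS1-deltaHD replicate 2. *Itgad*, the remaining alpha chain of this family, did not match a probe set with 1 symbol.

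*Itga4*, the alpha 4 chain of VLA-4 and of the gut-homing receptor alpha 4 beta 7, read 623, 731 and 665 in control. MEIS1-WT read 359.9, 366 and 402, MEIS1-deltaHD 465, 476 and 455, and M33-MEIS1 501, 506 and 451. Control lay above every construct array, and MEIS1-WT lay below the other constructs. The mean was 1.79-fold lower with MEIS1-WT (-0.81 ± 0.082, adjusted p = 2.35e-08), 1.45-fold lower with MEIS1-deltaHD (-0.52 ± 0.082, adjusted p = 2.02e-05) and 1.39-fold lower with M33-MEIS1 (-0.46 ± 0.082, adjusted p = 1.19e-04). Scaling each array to a common median ended the last 2 calls (-0.02, adjusted p = 0.917, and -0.10, adjusted p = 0.592), and the MEIS1-WT call held (-0.46, adjusted p = 0.00262).

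The other 4 kept *Itga4* probe sets were dimmer, with control means of 106, 50.9, 49.7 and 17.6. With MEIS1-WT 3 of these 4 passed singly as lower, at -0.55 (adjusted p = 0.00453), -0.49 (0.0458) and -0.65 (0.0283). With MEIS1-deltaHD 1 passed, the dimmest (-0.80, adjusted p = 0.00716), and with M33-MEIS1 none did. The dimmest lay above the filter threshold on 4 of 12 arrays, of which 0 were of MEIS1-deltaHD and 1 was of MEIS1-WT, so its differences of -0.65 and -0.80 compare signals near background and do not support those of the brightest probe set.

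*Itgb7*, the beta chain that joins alpha 4 in mucosal homing and is also made by mast cell progenitors, read 485, 461 and 424 in control. MEIS1-WT read 165, 161 and 185, MEIS1-deltaHD 196, 166 and 180.4, and M33-MEIS1 265, 245 and 265. The arrays of MEIS1-WT and MEIS1-deltaHD mixed, those of M33-MEIS1 lay above both, and control lay highest. The mean was 2.68-fold lower with MEIS1-WT (-1.34 ± 0.092, adjusted p = 3.27e-11), 2.52-fold lower with MEIS1-deltaHD (-1.26 ± 0.092, adjusted p = 1.26e-10) and 1.77-fold lower with M33-MEIS1 (-0.78 ± 0.092, adjusted p = 4.59e-07).

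**Figure D2:**
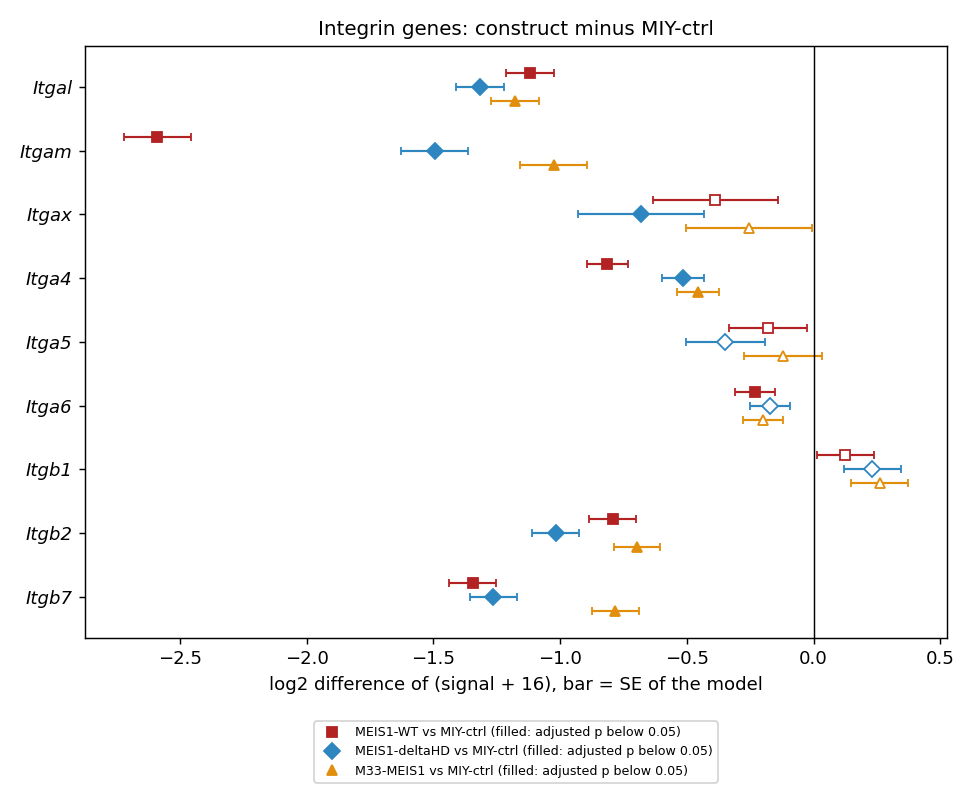
Log2 difference from the control vector (horizontal axis, log2 of signal + 16) for each integrin gene (rows) with MEIS1-WT (squares), MEIS1-deltaHD (diamonds) and M33-MEIS1 (triangles), with SE bars and filled symbols where the adjusted p is below 0.05. Itgam with MEIS1-WT lies furthest left at -2.59, and the Itgb1 symbols lie right of 0 and are open.

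The genes of the beta 1 receptors gave smaller differences from control. *Itgb1*, the beta chain of the fibronectin and laminin receptors, read 325, 369 and 354 in control and 420, 392.3 and 338 with MEIS1-WT. It read 448, 421 and 373 with MEIS1-deltaHD and 355, 400.4 and 524 with M33-MEIS1. The construct arrays reached higher than control, yet MEIS1-WT and M33-MEIS1 overlapped it. The log2 differences were 0.13 ± 0.11 (adjusted p = 0.430), 0.23 ± 0.11 (adjusted p = 0.110) and 0.26 ± 0.11 (adjusted p = 0.0824). The call depends on the setting: *Itgb1* passed as higher with all 3 constructs under median scaling (0.48, 0.72 and 0.61) and when its kept probe sets were averaged (0.24, 0.24 and 0.29, adjusted p = 0.0273, 0.0263 and 0.0105). Without M33-MEIS1 replicate 1 it passed with M33-MEIS1 (0.38, adjusted p = 0.0185), and without shared probe sets with MEIS1-WT (0.31, adjusted p = 0.0193). A second probe set, at 324 ± 30.0 in control and 404 ± 29.9 with MEIS1-WT, passed singly as higher with MEIS1-WT (0.31, adjusted p = 0.0233). Another, at 22.6 ± 3.98 in control, passed with no construct, and 3 more did not pass the filter.

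*Itga6*, the alpha 6 chain of a laminin receptor of stem and progenitor cells, read 668, 649.7 and 721 in control. MEIS1-WT read 614, 568 and 547, MEIS1-deltaHD 608, 555 and 644, and M33-MEIS1 579, 596 and 593. Control lay above the construct arrays by a narrow margin. The log2 difference passed with MEIS1-WT (-0.23 ± 0.078, adjusted p = 0.0251) and did not with MEIS1-deltaHD (-0.17 ± 0.078, adjusted p = 0.0935) or M33-MEIS1 (-0.20 ± 0.078, adjusted p = 0.0574). The MEIS1-WT call was lost without control replicate 3, MEIS1-WT replicate 2, MEIS1-WT replicate 3 or the intensity trend. Under quantile scaling *Itga6* passed as lower with all 3 constructs, without control replicate 2 it passed with M33-MEIS1 (adjusted p = 0.0457), and under median scaling all 3 differences turned positive (0.13, 0.32 and 0.15, with adjusted p = 0.0325 for MEIS1-deltaHD). The second *Itga6* probe set, at 526 ± 31.8 in control, passed with no construct.

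*Itga5*, the alpha 5 chain of the fibronectin receptor, read 46.6, 63.3 and 67.3 in control and 40.8, 47.0 and 63.6 with MEIS1-WT. It read 40.02, 44.5 and 43.2 with MEIS1-deltaHD and 56.8, 49.4 and 51.8 with M33-MEIS1. The MEIS1-deltaHD arrays lay just below control and the others overlapped it. The log2 differences were -0.18 ± 0.15 (adjusted p = 0.412), -0.35 ± 0.15 (adjusted p = 0.0828) and -0.12 ± 0.15 (adjusted p = 0.607) and did not pass, and under median scaling they were 0.10, 0.03 and 0.16. Without control replicate 1 *Itga5* passed as lower with MEIS1-deltaHD (-0.47, adjusted p = 0.0330). Of its other probe sets, 1 did not pass the filter and 2 were dim, at 29.0 ± 7.18 and 10.1 ± 8.27 in control, and passed against control with no construct.

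**Figure D3:**
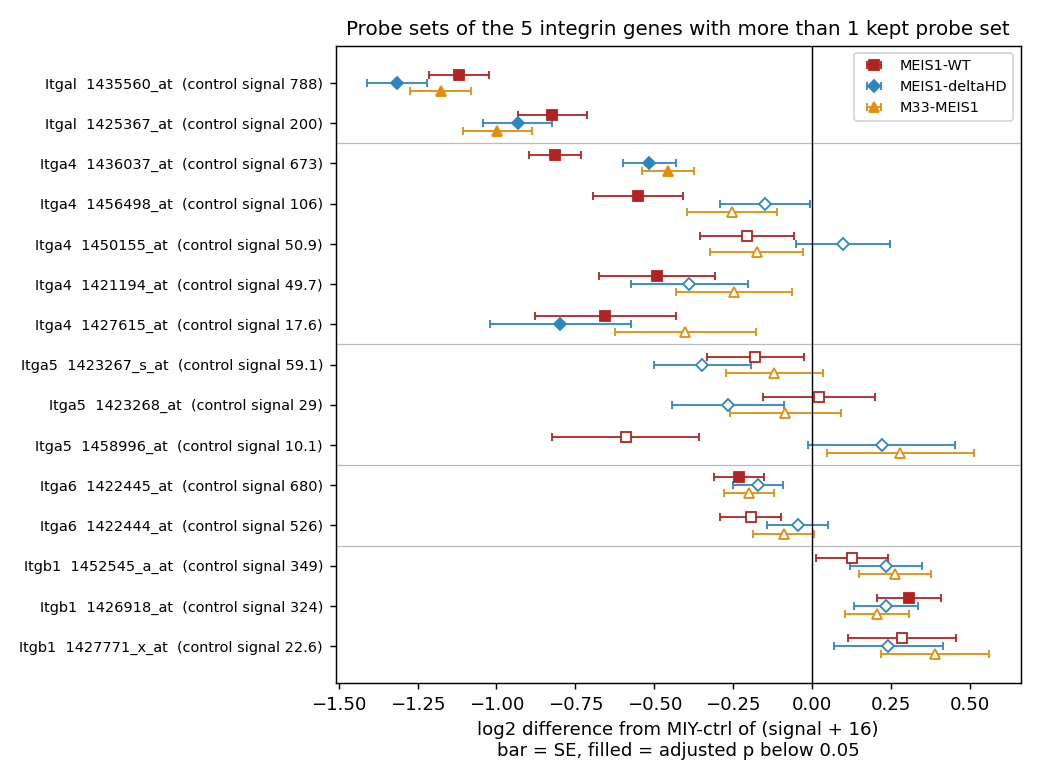
Log2 difference from the control vector (horizontal axis, with SE bars) for each kept probe set of the 5 genes that have more than 1 (rows, with the mean control signal in linear array units), tested singly over all kept probe sets. Both Itgal probe sets lie left of -0.80 with each construct, while the Itga4 probe sets with control signals of 106 or less scatter between -0.80 and 0.10.

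Over the 19 kept probe sets, 10 passed as lower and 1 as higher with MEIS1-WT, against 17.8% and 13.1% of all 31726 kept probe sets. With MEIS1-deltaHD 8 were lower, against 20.8%, and with M33-MEIS1 6 were lower, against 17.1%. The 8 include the *Itgax* probe set and the dimmest *Itga4* probe set, neither above the filter threshold on any MEIS1-deltaHD array. That *Itga4* probe set is also among the 10 with MEIS1-WT, so these counts include signals near background. Probe sets of one gene share its transcripts and are not independent.

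The constructs were then set against each other, which asks how loss of the homeodomain or use of the M33 construct changes the response. *Itgam*, *Itga4* and *Itgb7* differed between constructs in 1 or more of the 3 comparisons, and the other 6 integrin genes passed in none. MEIS1-WT against MEIS1-deltaHD gave 2 of 9 genes lower, against 2.83% of all genes, and 0 higher (2 at an unadjusted p below 0.05 in limma), against 2.43%. Arrays of 23.1% of all genes do not overlap in this pair. Of the 9, those of *Itgam* and *Itga4* lay wholly lower with MEIS1-WT and those of *Itgal* and *Itgb2* wholly higher. *Itgam* was 2.87-fold lower with MEIS1-WT (-1.09 ± 0.13, adjusted p = 3.32e-06), and *Itga4* was 1.24-fold lower (-0.30 ± 0.082, adjusted p = 0.0307). The *Itga4* call was lost without MEIS1-WT replicate 1 or 2 or any of the 3 MEIS1-deltaHD arrays (adjusted p = 0.062 to 0.14), when probe sets were averaged (0.426) and without the intensity trend of the model (0.143). A dim *Itga5* probe set (0.685 ± 0.559 with MEIS1-WT, 13.4 ± 3.57 with MEIS1-deltaHD) also passed singly as lower (-0.81, adjusted p = 0.0471), making 3 of 19 probe sets, against 2.42%. That probe set was below the filter threshold on all 3 MEIS1-WT arrays.

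M33-MEIS1 against MEIS1-WT gave 3 of 9 genes higher, against 4.11% of all genes higher and 2.36% lower, with non-overlapping arrays for 21.5%. Of the 9, the arrays of *Itgam*, *Itga4* and *Itgb7* did not overlap. Singly, 4 of 19 probe sets were higher, against 3.36%. Among these 4 was the dim *Itga5* probe set (0.87, adjusted p = 0.0256), at 14.5 ± 2.43 with M33-MEIS1 and 0.685 ± 0.559 with MEIS1-WT. It lay below the filter threshold on all 3 MEIS1-WT arrays, so its difference compares signals near background. *Itgam* was 4.23-fold higher with M33-MEIS1 (1.56 ± 0.13, adjusted p = 6.12e-09). *Itgb7* was 1.52-fold higher (0.56 ± 0.092, adjusted p = 1.73e-04) and *Itga4* 1.29-fold higher (0.36 ± 0.082, adjusted p = 0.00610). The *Itga4* call was lost under median scaling, without the intensity trend of the model and when probe sets were averaged.

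M33-MEIS1 and MEIS1-deltaHD were the closest pair over all genes, with 0.67% passing as higher and 0.04% as lower. *Itgb7* was the 1 integrin gene of 9 to pass, 1.43-fold higher with M33-MEIS1 (0.48 ± 0.092, adjusted p = 0.00836). Its probe set was also the 1 of 19 that passed singly, against 0.438%. It did not pass under median scaling (adjusted p = 0.268), without the trend (0.105), without MEIS1-deltaHD replicate 2 (0.0905) or without M33-MEIS1 replicate 3 (0.0551). *Itgam* did not overlap between these groups and did not pass (0.47 ± 0.13, adjusted p = 0.117), and neither did *Itgb2* (0.32 ± 0.092, adjusted p = 0.124). The arrays of *Itgb7* and *Itga5* did not overlap either, beside 16% of all genes in this pair. *Itgal* differed by 0.14 ± 0.095 (adjusted p = 0.655) here, by 0.20 ± 0.095 (adjusted p = 0.316) between MEIS1-WT and MEIS1-deltaHD, and by -0.06 ± 0.095 (adjusted p = 0.831) between M33-MEIS1 and MEIS1-WT.

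**Figure D4:**
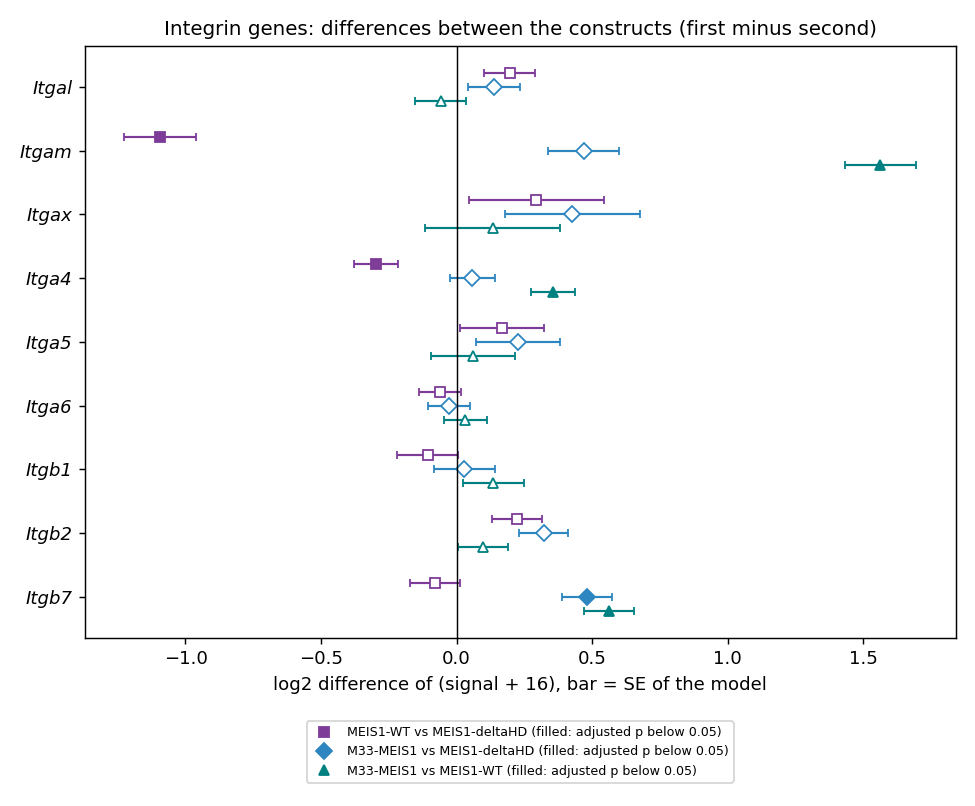
Log2 difference between constructs (horizontal axis, first minus second, with SE bars) for each integrin gene (rows), with filled symbols where the adjusted p is below 0.05. Itgam carries the widest differences, at -1.09 for MEIS1-WT against MEIS1-deltaHD and 1.56 for M33-MEIS1 against MEIS1-WT, and Itgal, Itgax, Itga5, Itga6, Itgb1 and Itgb2 have open symbols throughout.

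The all-gene median itself lay below 0 against control and moved to 0.10, 0.13 and 0.10 under median scaling, so the integrin differences were also read relative to it. Relative to the median of all genes, *Itgam* was at -2.47 (MEIS1-WT), -1.33 (MEIS1-deltaHD) and -0.90 (M33-MEIS1) under the authors' scaling and at -2.37, -1.18 and -0.79 under median scaling. *Itgal* was at -0.99, -1.14 and -1.05 and then at -0.86, -0.96 and -0.92. *Itgb7* was at -1.22, -1.09 and -0.65 and then at -1.09, -0.92 and -0.53. *Itgb2* was at -0.67, -0.85 and -0.57 and then at -0.53, -0.65 and -0.44. These 4 genes passed as lower in all 3 comparisons under the authors', the quantile and the median scaling. Of the other genes, *Itga4* was at -0.69, -0.35 and -0.33 and then at -0.56, -0.16 and -0.20. *Itgax* was at -0.26, -0.51 and -0.13 and then at -0.34, -0.65 and -0.21. *Itgb1* lay above the median, at 0.25, 0.40 and 0.39 and then at 0.38, 0.59 and 0.51. *Itga5* was at -0.056, -0.18 and 0.0076 and then at 0.0011, -0.099 and 0.060. *Itga6* was at -0.11, -0.00077 and -0.071 and then at 0.026, 0.19 and 0.056. Quantile scaling gave other values relative to the median: *Itga6* was at -0.34, -0.27 and -0.28 and *Itga4* at -0.90, -0.60 and -0.53. *Itgax* was then at -0.21, -0.47 and -0.081, *Itgb1* at 0.087, 0.20 and 0.24 and *Itga5* at -0.0078, -0.13 and 0.057.

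Markers of mature myeloid cells moved with the groups. All 11 tested monocyte and macrophage markers were lower with each construct, against 19.4%, 22.7% and 18.3% of all genes, and none was at 0. Their summed signal was 12839 to 14979 in control, 619.8 to 738 with MEIS1-WT, 2369 to 2545 with MEIS1-deltaHD and 3709.9 to 4226 with M33-MEIS1. That is the order of the groups for *Itgam*. Among them, log2 differences from control were read for *Lyz2*, a lysozyme (-5.41, -3.07 and -1.99), *Ms4a6d* (-5.40, -3.71 and -2.71) and *Ctss*, a cathepsin (-5.12, -3.26 and -2.22), each in the order MEIS1-WT, MEIS1-deltaHD, M33-MEIS1. *Mpeg1*, which encodes perforin-2, was lower with MEIS1-WT than with MEIS1-deltaHD (-2.47, adjusted p = 1.73e-09). *Csf1r*, the receptor for macrophage colony-stimulating factor, read 1590.4 ± 101 in control, 32.3 ± 5.86 for MEIS1-WT, 425 ± 23.8 for MEIS1-deltaHD and 634 ± 19.8 for M33-MEIS1. The part of these markers in the integrin differences was not tested, and in bulk RNA fewer cells of a type and less RNA per cell cannot be told apart.

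Neutrophil markers, of the other cells that carry Mac-1, did not all move the same way. Of 13 tested, 6 were lower with MEIS1-WT, 6 higher and 2 lower with MEIS1-deltaHD, and 7 higher and 2 lower with M33-MEIS1 (of all genes, 19.4%, 22.7% and 18.3% were lower and 13.3%, 13.8% and 12.4% higher). *Mmp8*, a collagenase, was lower with each construct, at 3746 ± 83.2 in control, 180.3 ± 38.5 for MEIS1-WT, 456 ± 78.3 for MEIS1-deltaHD and 962 ± 88.0 for M33-MEIS1 (-4.28, -3.01 and -1.95), which is the order of *Itgam*. *Lcn2*, a lipocalin, was also lower with each, at 459 ± 125 in control, 76.6 ± 8.47 for MEIS1-WT, 132 ± 9.09 for MEIS1-deltaHD and 136 ± 11.3 for M33-MEIS1 (-2.33, -1.65 and -1.61). *Elane*, neutrophil elastase (0.13, 1.63 and 1.43), and *Ngp*, a granule protein (-0.50, 1.38 and 1.72), were higher with MEIS1-deltaHD and M33-MEIS1. The summed signal of the 13 was 18946 to 22396 in control, 14008 to 14819 with MEIS1-WT, 21549 to 22942 with MEIS1-deltaHD and 22459 to 26227 with M33-MEIS1. *S100a9*, a neutrophil and monocyte calcium-binding protein, read 341 ± 83.0 in control, 136 ± 14.5 for MEIS1-WT, 766 ± 119 for MEIS1-deltaHD and 1044 ± 102 for M33-MEIS1. *S100a8*, its partner, was lower with MEIS1-WT than with MEIS1-deltaHD (-2.01, adjusted p = 1.81e-09).

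Mast cell and basophil markers, which can accompany *Itgb7*, gave 2 higher and 7 lower of 10 with MEIS1-WT, the same with MEIS1-deltaHD, and 5 higher and 2 lower with M33-MEIS1, beside the same all-gene shares. Their summed signal was 3080.3 to 4050.3 in control, 2403 to 2531 with MEIS1-WT, 2533 to 2668 with MEIS1-deltaHD and 4358 to 4689.7 with M33-MEIS1. By gene, the log2 differences from control were -1.61, -0.73 and -0.23 for *Fcer1a*, -0.96, -0.77 and 0.22 for *Cpa3*, -0.65, -0.95 and 0.70 for *Cma1* and -0.93, -1.01 and 0.33 for *Tpsb2*. They were 0.47, 0.30 and 0.97 for *Hdc*, -0.13, 0.40 and 1.23 for *Mcpt8*, 0.29, -0.35 and -0.59 for *Kit* and -0.51, -0.88 and -0.52 for *Gata2*, and *Ms4a2* and *Tpsab1* stood at -0.52, 0.19 and 0.62 and -0.56, -0.57 and 0.89. T and NK cell markers, B cell markers and erythroid markers had 3 tested genes each, with summed signals of 12.4 to 75.4 over all arrays. Fibroblast markers, listed for the virus producer line, summed to 461 to 561 in control and to 264 to 383 with the constructs, with 2 of 7 lower in each comparison, against 19.4%, 22.7% and 18.3% of all genes. *Fap* (-0.71, -0.77 and -0.90) and *Pdgfrb* (-0.69, -0.89 and -1.08) were those 2. *Igll1*, the 1 B cell marker that passed against control, was lower with MEIS1-deltaHD (-0.80, adjusted p = 0.0400). The part of these lists was not tested either.

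Of the transcription factors reported to control leukocyte integrin genes, 13 were tested. With MEIS1-WT 9 of 13 passed as lower, against 19.4% of all genes. With MEIS1-deltaHD and M33-MEIS1 4 of 13 passed as lower each, against 22.7% and 18.3%. Their median log2 differences were -0.27, -0.13 and -0.16, beside -0.12, -0.17 and -0.13 over all genes. *Irf8*, a factor of monocyte and dendritic cell fate, read 294 ± 60.4 in control, 63.8 ± 9.35 for MEIS1-WT, 264 ± 9.47 for MEIS1-deltaHD and 339 ± 40.2 for M33-MEIS1. It passed with MEIS1-WT (-1.95, adjusted p = 6.50e-12) and not with MEIS1-deltaHD (-0.13, adjusted p = 0.445) or M33-MEIS1 (0.21, adjusted p = 0.212). *Spi1*, the gene of PU.1, read 539 ± 101 in control, 291 ± 21.1 for MEIS1-WT, 457 ± 31.7 for MEIS1-deltaHD and 453 ± 19.1 for M33-MEIS1. It was lower with MEIS1-WT (-0.84, adjusted p = 5.49e-07) and did not pass against control with MEIS1-deltaHD (-0.22, adjusted p = 0.106) or M33-MEIS1 (-0.23, adjusted p = 0.10003). *Cebpb*, a factor of macrophage and granulocyte genes, was lower with all 3 constructs (-1.62, -0.94 and -0.87, adjusted p = 6.95e-14, 1.75e-09 and 8.81e-09). *Gata2*, a factor of stem and mast cells, was lower with each construct (-0.51, -0.88 and -0.52, adjusted p = 4.19e-04, 3.18e-07 and 4.20e-04), and *Fli1*, an ETS factor, was higher with MEIS1-WT than with MEIS1-deltaHD (0.47, adjusted p = 0.00266). Between MEIS1-WT and MEIS1-deltaHD, *Irf8* differed by -1.82 (adjusted p = 2.12e-10) and *Cebpb* by -0.68 (adjusted p = 2.19e-06).

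**Figure D5:**
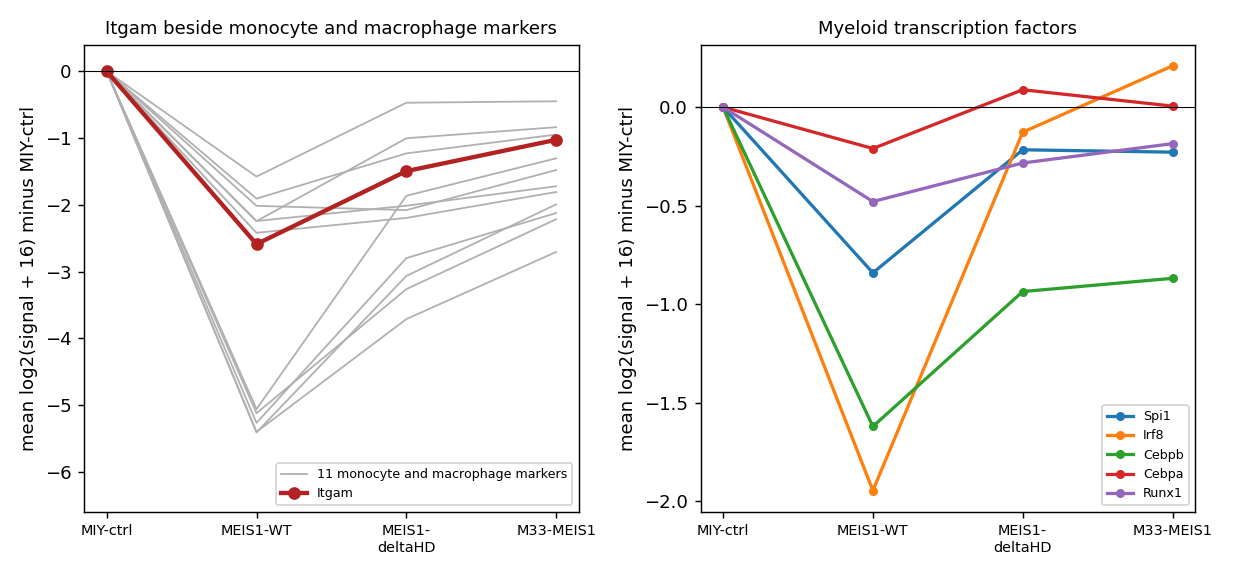
Mean log2(signal + 16) minus the control mean (vertical axes) in the 4 groups (horizontal axes, the groups have no order and lines only link values of one gene), for Itgam beside 11 monocyte and macrophage markers on the left and for 5 myeloid transcription factors on the right. Itgam has its lowest mean with MEIS1-WT, as do Irf8 at -1.95 and Cebpb at -1.62.

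Integrin subunits outside the leukocyte set were also measured. Of 12 tested, the count that passed as lower against control was 1 for MEIS1-WT, 3 for MEIS1-deltaHD and 2 for M33-MEIS1, near or below the all-gene shares of 19.4%, 22.7% and 18.3%. The median log2 differences were -0.07, -0.23 and -0.18, beside -0.12, -0.17 and -0.13 over all genes. *Itga2b*, the platelet alpha IIb chain, read 395 ± 64.2 in control, 380.4 ± 51.7 for MEIS1-WT, 225 ± 10.2 for MEIS1-deltaHD and 314 ± 10.7 for M33-MEIS1. *Itgb3*, its partner, read 70.3 ± 7.04 in control, 79.0 ± 14.4 for MEIS1-WT, 31.9 ± 3.94 for MEIS1-deltaHD and 52.4 ± 9.44 for M33-MEIS1. Both were higher with MEIS1-WT than with MEIS1-deltaHD, *Itga2b* by 0.71 (adjusted p = 7.66e-05) and *Itgb3* by 0.98 (adjusted p = 9.65e-05), the reverse of *Itgam* and *Itga4*. *Itgav*, a partner of beta 3 and beta 5, was lower with MEIS1-deltaHD (-0.34, adjusted p = 0.00275) and M33-MEIS1 (-0.43, adjusted p = 4.03e-04), at 429.8 ± 48.5 in control, 452 ± 14.5 for MEIS1-WT, 335 ± 11.3 for MEIS1-deltaHD and 315 ± 8.37 for M33-MEIS1. *Itgb5* was lower with MEIS1-WT (-0.87, adjusted p = 7.62e-07).

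Among the counter-receptors and ligands of integrins, 13 were tested, and 1 was higher with each construct while 5, 5 and 4 were lower, beside all-gene shares of 13.3%, 13.8% and 12.4% higher and 19.4%, 22.7% and 18.3% lower. *Icam2*, an LFA-1 ligand, was the higher one in all 3, at 395 ± 27.7 in control, 543 ± 41.4 for MEIS1-WT, 575 ± 7.87 for MEIS1-deltaHD and 541 ± 28.5 for M33-MEIS1 (log2 differences 0.44, 0.52 and 0.44, adjusted p = 1.20e-04, 1.34e-05 and 1.57e-04). *Icam1*, also an LFA-1 ligand, was lower, at 159 ± 17.4 in control, 83.7 ± 18.6 for MEIS1-WT, 77.5 ± 6.31 for MEIS1-deltaHD and 105 ± 7.23 for M33-MEIS1 (-0.82, -0.90 and -0.53, adjusted p = 1.94e-05, 5.42e-06 and 0.00275). *Thbs1*, a secreted matrix protein, was lower with each construct (-1.93, -0.74 and -0.68, adjusted p = 2.08e-09, 0.00110 and 0.00322), as was *F11r*, which encodes the junction protein JAM-A (-0.65, -0.98 and -0.44, adjusted p = 0.00330, 3.80e-05 and 0.0446). *Cdh1*, E-cadherin, had log2 differences of -1.20, -0.30 and 0.09 (adjusted p = 2.38e-05, 0.243 and 0.774). It read 34.4 ± 8.11 in control and 5.79 ± 2.25 with MEIS1-WT, where the filter thresholds were 9.14 to 9.96. The first difference thus compares a low signal with background.

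Of the proteins that act on integrin activation from inside the cell, 18 were tested. This list mixes activators with proteins that restrain integrins, such as *Cytip*. It gave 1 higher and 8 lower with MEIS1-WT, 3 and 8 with MEIS1-deltaHD, and 1 and 6 with M33-MEIS1. Of all genes, 13.3%, 13.8% and 12.4% were higher and 19.4%, 22.7% and 18.3% lower. *Fyb*, an adaptor that links T cell and myeloid receptors to integrin activation, read 382 ± 15.3 in control, 102 ± 40.9 for MEIS1-WT, 118 ± 27.2 for MEIS1-deltaHD and 156 ± 11.1 for M33-MEIS1 and was lower with each construct (-1.81, -1.59 and -1.21, adjusted p = 2.93e-09, 2.88e-08 and 2.60e-06). *Cytip*, which binds cytohesin and loosens LFA-1 adhesion, was lower as well (-1.15, -0.55 and -0.36, adjusted p = 7.28e-10, 5.08e-05 and 0.00471). *Tln1*, the talin that binds beta chain tails, read 941 ± 51.6 in control and 879 ± 49.4, 882 ± 42.0 and 928 ± 30.9 with the constructs, and passed with none (-0.10, -0.09 and -0.02, adjusted p = 0.346, 0.353 and 0.871). Log2 differences from control were 0.37, 0.35 and 0.14 for *Rapgef1*, 0.06, 0.43 and 0.04 for *Rasgrp2*, 0.13, 0.23 and 0.29 for *Itgb1bp1*, -0.38, -0.73 and -0.48 for *Rap1gap* and -0.79, -0.60 and -0.62 for *Cyth1*. Of 19 adaptors and kinases that act after ligand binding, 2 were higher and 7 lower with MEIS1-WT, 1 and 10 with MEIS1-deltaHD, and 1 and 8 with M33-MEIS1. *Vcl*, the focal adhesion protein vinculin, was higher with each construct (0.85, 0.60 and 0.57, adjusted p = 3.31e-08, 6.32e-06 and 1.56e-05), and *Zyx*, the focal adhesion protein zyxin, was lower (-0.93, -0.90 and -0.66, adjusted p = 9.05e-08, 1.47e-07 and 1.86e-05). *Fgr*, a myeloid Src-family kinase, stood at -1.07, -0.89 and -0.32, *Lims1* at 0.39, -0.27 and -0.28, *Dock2* at -0.44, -0.60 and -0.60, *Vav3* at 0.05, -0.46 and -0.42 and *Lcp2* at -0.58, -0.54 and -0.20. The all-gene shares are those given above for the activation list.

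For the 4 integrin genes whose group means spanned at least 1 on the log2 scale, the features with the most similar profile over the 12 arrays were listed by the root mean square (RMS) difference of their centred log2 values. *Itgam* was closest to *Evi2a* (RMS difference 0.14), *Pld4* (0.17) and *Tpd52* (0.18). *Itgal* was closest to *Gab2* (0.11), *Ncoa7* (0.12) and *Insr* (0.12), and *Itgb2* to *Hoxc4* (0.094), *Sppl2a* (0.094) and *Dnase1l1* (0.10). *Itgb7* was closest to *2010315B03Rik* (0.13), *Cstb* (0.14) and *Abcg1* (0.14). *Evi2a*, for example, had mean signals of 747 in control, 137 for MEIS1-WT, 255 for MEIS1-deltaHD and 369 for M33-MEIS1. It was picked for its likeness to *Itgam* on these same arrays, so the shared order of the groups is not a separate result.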

How the data were processed

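Gene expression was measured on 12 Affymetrix mouse arrays, in 4 groups of 3. The values deposited by the authors are probe set intensities on a linear scale from GCOS 1.2, per the submitters' processing notes. A trimmed mean of 100.001 on each array, without the lowest and highest 2% of values, shows that the authors scaled all arrays to one target. No array batch or detection call was at hand.

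Signals were turned into log2(signal + 16). Of 45101 probe sets, 64 controls were left out, and 31726 lay above the 40th percentile of their array on at least 3 arrays. Each gene was represented by its kept probe set of highest mean, giving 19990 features, 14005 of them with 1 symbol. Symbols came from the platform annotation and, for 34741 probe sets, were looked up by Entrez ID, with 0 changes. One limma 3.58.1 model (R 4.3.3) with an intensity trend was fitted to the 4 groups, with 8 residual degrees of freedom, with two-sided p-values and Benjamini-Hochberg adjustment over all features of each of 6 comparisons. Probe sets were also tested singly. An exact test of 3 arrays against 3 cannot fall below p = 0.1, and the spread used is that shared by all groups. The fitting script was tested on simulated data.

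The integrin genes and the other gene lists were chosen with earlier results of these data known. Named from each list were up to 2 genes per direction and comparison with the largest difference among those that passed without overlap of arrays, and *Itgad*, *Itgav*, *Itga2b* and *Itgb3* in any case. *Tln1* and *Spi1* were named for their known role, outside this rule. Alternatives were other offsets, no filter, 2 other scalings, other probe set rules, fewer arrays, a replicate block and no trend.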

Additional observations from a re-analysis of the deposited data

How the results depend on the processing

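Over the alternatives, single integrin values kept direction and side of the threshold 799 times, gained a pass 12 times, lost one 26 times and turned direction 27 times. Counts of integrin genes stayed within 1.5 times the reported count 85 times and fell below it 11 times, and counts of all genes did so 88 and 8 times. Both kinds of count add genes that passed as higher to those that passed as lower, so a kept count can hide a change of direction. Under median scaling, 5 integrin genes were lower and 1 higher than control for MEIS1-WT. For MEIS1-deltaHD 4 were lower and 2 higher, and for M33-MEIS1 4 were lower and 1 higher. *Itgal*, *Itgam*, *Itgb2* and *Itgb7* passed as lower against control under every alternative run. The cause of each change was not tested, except that leaving out an array leaves fewer samples.

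Of the genes that passed against control, 40.7%, 37.8% and 40.3% were higher for MEIS1-WT, for MEIS1-deltaHD and for M33-MEIS1. Under quantile scaling this was 51.0%, 49.6% and 50.6%, and under median scaling 77.4%, 82.2% and 80.7%. For MEIS1-WT against MEIS1-deltaHD the share went from 46.2% to 23.4% under median scaling, and for M33-MEIS1 against MEIS1-deltaHD from 94.4% to 80%. Without the trend the latter was 83.9%.

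Under median scaling *Itga5* turned to 0.10, 0.035 and 0.16 and *Itga6* to 0.13, 0.32 and 0.15 against control. M33-MEIS1 minus MEIS1-deltaHD turned to -0.0020 for *Itgal*, -0.083 for *Itga4* and -0.11 for *Itgb1*, with 0 integrin genes and 70.0 of all genes passing. Under quantile scaling *Itga5* with M33-MEIS1 was 0.048 above control. With the mean of probe sets *Itga5* was 0.025 above control with M33-MEIS1 and -0.12 between MEIS1-WT and MEIS1-deltaHD, where *Itgb1* was 0.0028 and 1 integrin gene passed. Without shared probe sets *Itga5* was 0.022 with MEIS1-WT against control and -0.11 with M33-MEIS1 against MEIS1-WT. *Itgb1* was then 0.072 for MEIS1-WT minus MEIS1-deltaHD, -0.029 for M33-MEIS1 minus MEIS1-deltaHD and -0.10 for M33-MEIS1 minus MEIS1-WT. With no filter 88 of all genes passed between M33-MEIS1 and MEIS1-deltaHD. Without the trend 31 passed there, with 0 integrin genes, and 605 between MEIS1-WT and MEIS1-deltaHD, with 1 integrin gene.

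Leaving out 1 array at a time gave 1 to 2 integrin genes and 692 to 893 of all genes for MEIS1-WT against MEIS1-deltaHD, and 0 to 1 and 58 to 134 for M33-MEIS1 against MEIS1-deltaHD. M33-MEIS1 minus MEIS1-WT then ranged from -0.15 to 0.039 for *Itgal*, -0.012 to 0.31 for *Itgax*, -0.046 to 0.20 for *Itga5*, -0.0033 to 0.078 for *Itga6*, -0.017 to 0.25 for *Itgb1* and -0.0030 to 0.17 for *Itgb2*. M33-MEIS1 minus MEIS1-deltaHD ranged from -0.084 to 0.020 for *Itga6* and from -0.12 to 0.15 for *Itgb1*.

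Arrays with the same replicate number did not deviate together (correlation -0.038 to 0.025 over 18 pairs, and -0.040 to 0.052 over 36 pairs of other numbers). With the number as a replicate block the integrin counts were 6, 6 and 5 against control and 2, 1 and 3 between constructs, and 6409 of all genes passed for MEIS1-WT against control. Dim probe sets, such as that of *Itgax*, limit what can be read from low signals.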

Other observations

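Tetraspanins and other membrane partners of integrins were compared with control under the authors' scaling. Of 9 tested, 5 were lower with each construct, against 19.4%, 22.7% and 18.3% of all genes. Higher were 2, 1 and 1, near the all-gene shares of 13.3%, 13.8% and 12.4%. *Cd53*, a leukocyte tetraspanin, had a signal of 2883 ± 187 in control, 1163 ± 92.9 for MEIS1-WT, 1805 ± 103 for MEIS1-deltaHD and 1975 ± 84.5 for M33-MEIS1 (log2 differences -1.30, -0.67 and -0.54, adjusted p = 2.04e-12, 1.90e-07 and 5.94e-06, limma). *Cd82*, another tetraspanin, was also lower (-1.29, -0.85 and -0.68, adjusted p = 5.81e-09, 4.27e-06 and 9.78e-05). *Cd53* was higher with M33-MEIS1 than with MEIS1-WT (0.76, adjusted p = 1.34e-07), as was *Cd82* (0.61, adjusted p = 0.00129). Log2 differences from control were -0.29, -0.66 and -0.41 for *Cd9*, 0.29, -0.04 and 0.06 for *Cd81*, 0.22, -0.19 and -0.08 for *Cd151* and -0.68, -0.58 and -0.55 for *Plaur*. *Bsg*, which encodes CD147, was higher with each construct, at 1031 ± 98.4 in control, 1576 ± 31.8 for MEIS1-WT, 1547 ± 73.3 for MEIS1-deltaHD and 1552 ± 37.5 for M33-MEIS1 (0.61, 0.58 and 0.59, adjusted p = 4.83e-07, 9.77e-07 and 1.20e-06).

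Other leukocyte adhesion molecules differed from control in both directions, under the authors' scaling. Of 9 tested, 2 were higher and 3 lower with MEIS1-WT, 2 higher and 1 lower with MEIS1-deltaHD, and 3 were higher with the M33 construct, beside the same all-gene shares. *Cd34*, the sialomucin of stem and progenitor cells, was higher with each construct, at 517 ± 22.9 in control, 813 ± 22.1 for MEIS1-WT, 811 ± 20.4 for MEIS1-deltaHD and 692 ± 37.9 for M33-MEIS1 (0.64, 0.64 and 0.41, adjusted p = 1.86e-07, 2.11e-07 and 1.10e-04). *Selplg*, the P-selectin ligand, was lower with MEIS1-WT (-0.29, adjusted p = 0.00890) and MEIS1-deltaHD (-0.34, adjusted p = 0.00231). Log2 differences from control were -0.84, -0.46 and -0.25 for *Ceacam1*, 0.24, 0.01 and 0.12 for *Cd44*, -0.03, 0.24 and 0.24 for *Pecam1* and 0.06, 0.14 and 0.26 for *Spn*. *Emb*, which encodes embigin, was lower with MEIS1-WT than with MEIS1-deltaHD (-0.54, adjusted p = 1.72e-04) and higher with M33-MEIS1 than with MEIS1-WT (0.62, adjusted p = 1.62e-05). Of 7 megakaryocyte and platelet markers, the cell type of *Itga2b* and *Itgb3*, 3 were higher with MEIS1-WT than with MEIS1-deltaHD, against 2.43% of all genes. *Itga2b* is itself among the 7 and among these 3, so the count is not separate from it. The summed signal of the 7 was 1512 to 2222 and 635 to 847 in these groups. Of 10 listed dendritic cell markers, the cell type of *Itgax*, 5 were tested. Against control, 1 was higher and 2 lower with MEIS1-WT, 3 lower with MEIS1-deltaHD and 2 lower with the M33 construct. Of all genes, 13.3%, 13.8% and 12.4% were higher and 19.4%, 22.7% and 18.3% lower. *Cd74* stood at -2.75, -2.01 and -1.47, *H2-Aa* at -1.40, -1.13 and -0.57 and *Flt3* at 1.00, -0.39 and -0.80 against control. Of the megakaryocyte markers, *Pf4* stood at 1.36, -0.40 and 0.63, *Ppbp* at 0.51, -0.86 and 0.06, *Selp* at -0.81, -1.08 and -0.78 and *Vwf* at -0.80, -0.52 and -0.11.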
